A study of Mus musculus with 6 samples.

Results

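The genes described here are 41 components of the extracellular and receptor level of Wnt signaling, taken by gene family. They are 19 Wnt ligands, 10 Frizzled receptors, the co-receptors *Lrp5* and *Lrp6*, 6 secreted proteins that bind Wnt (*Sfrp1*, *Sfrp2*, *Sfrp4*, *Sfrp5*, *Frzb* and *Wif1*) and 4 Dickkopf genes. All 41 were found among the 24421 rows of the deposited matrix. The matrix holds bulk RNA sequencing of GFP+ cells sorted from 129S6/SvEv mice aged 8 weeks, after dissection of the root and ascending part of the aorta. All mice carried the conditional *CAG-Sun1/sfGFP* tracer allele. In 3 libraries it was switched on by *Mef2c* SHF Cre, which traces the secondary heart field (SHF), and in 3 libraries by *Wnt1-Cre2*, which traces the cardiac neural crest (CNC). The column names of the matrix mark all 6 libraries as WT, the labels name no treatment and no other allele, and how many mice went into a library is not given in the sources used here. Both Cre lines mark descent and not a cell type, so the sort could hold any cell type of that lineage, and fewer cells of a type cannot be told apart from less RNA per cell.

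Wnt proteins are lipid-modified secreted ligands that act over short distances. They bind Frizzled receptors and, together with Lrp5 or Lrp6, stabilize β-catenin, which then works with Tcf/Lef factors at target genes. Other Wnt proteins, of which Wnt5a is the best studied, act largely without β-catenin through receptors such as Ror1 and Ror2. Secreted Frizzled-related proteins (Sfrp), Frzb and Wif1 bind Wnt ligands outside the cell, whereas classical Dickkopf proteins bind Lrp5 and Lrp6. In the developing outflow tract, Wnt signals act on both secondary heart field progenitors and neural crest cells.

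Values are TPM, transcript abundances corrected for length and scaled to a sum of 1000000 in each library, so that levels can be compared between genes but the depth behind a value is unknown. Values of a lineage are given in the order of its replicates 1, 2 and 3. The number of genes above 0 ran from 9255 to 11858 per library. A value of 0 is given as listed at 0. The summed level of 8 fibroblast markers ran from 26749 to 48258 TPM and that of 8 smooth muscle markers from 831 to 2050 TPM, so that fibroblast marker transcripts were 13.9 to 56.3 times as abundant as smooth muscle transcripts in cells that the study names vascular smooth muscle cells. The Y-linked *Ddx3y* was listed at 0 in SHF replicates 2 and 3, in which *Xist* was detected, and was above 0 in the other 4 libraries, so sex-linked transcripts were uneven between the lineages, and their part in the differences was not tested. The lineages were set against each other by a limma fit to log2(TPM + 1) of the 10185 genes that reached 1 TPM in 3 or more libraries, and differences are given as SHF minus CNC on that scale, which understates changes of low genes.

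Of the 41 genes, 28 were above 0 in some library, 16 were above 0 in all 6 and 13 were listed at 0 in all 6. The 13 were the ligands *Wnt3*, *Wnt3a*, *Wnt6*, *Wnt7a*, *Wnt7b*, *Wnt8a*, *Wnt8b*, *Wnt9b* and *Wnt10a*, the receptor *Fzd9*, and the antagonists *Sfrp5*, *Dkk1* and *Dkk4*. Between 75.4% and 93.4% of the summed TPM of the 41 genes in a library came from the Sfrp, *Frzb*, *Wif1* and Dickkopf genes, grouped here as antagonists. This share includes *Dkk3*, whose role as an antagonist is unclear and which alone reached 356.56 to 1207.54 TPM. The 5 genes whose mean reached 100 TPM were all antagonists, and *Sfrp2*, *Dkk3* and *Wif1* ranked 236, 278 and 335 by mean level among all rows.

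The lineages did not overlap for 5 of the 18 genes tested, where 11.8% of all genes tested did not. *Sfrp2* and *Sfrp4* were higher in every CNC library than in any SHF library, and *Wif1*, *Wnt16* and *Wnt5a* were higher in every SHF library than in any CNC library. No difference passed the adjusted threshold of limma, so these are differences in the 6 libraries and were not called.

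**Figure D1:**
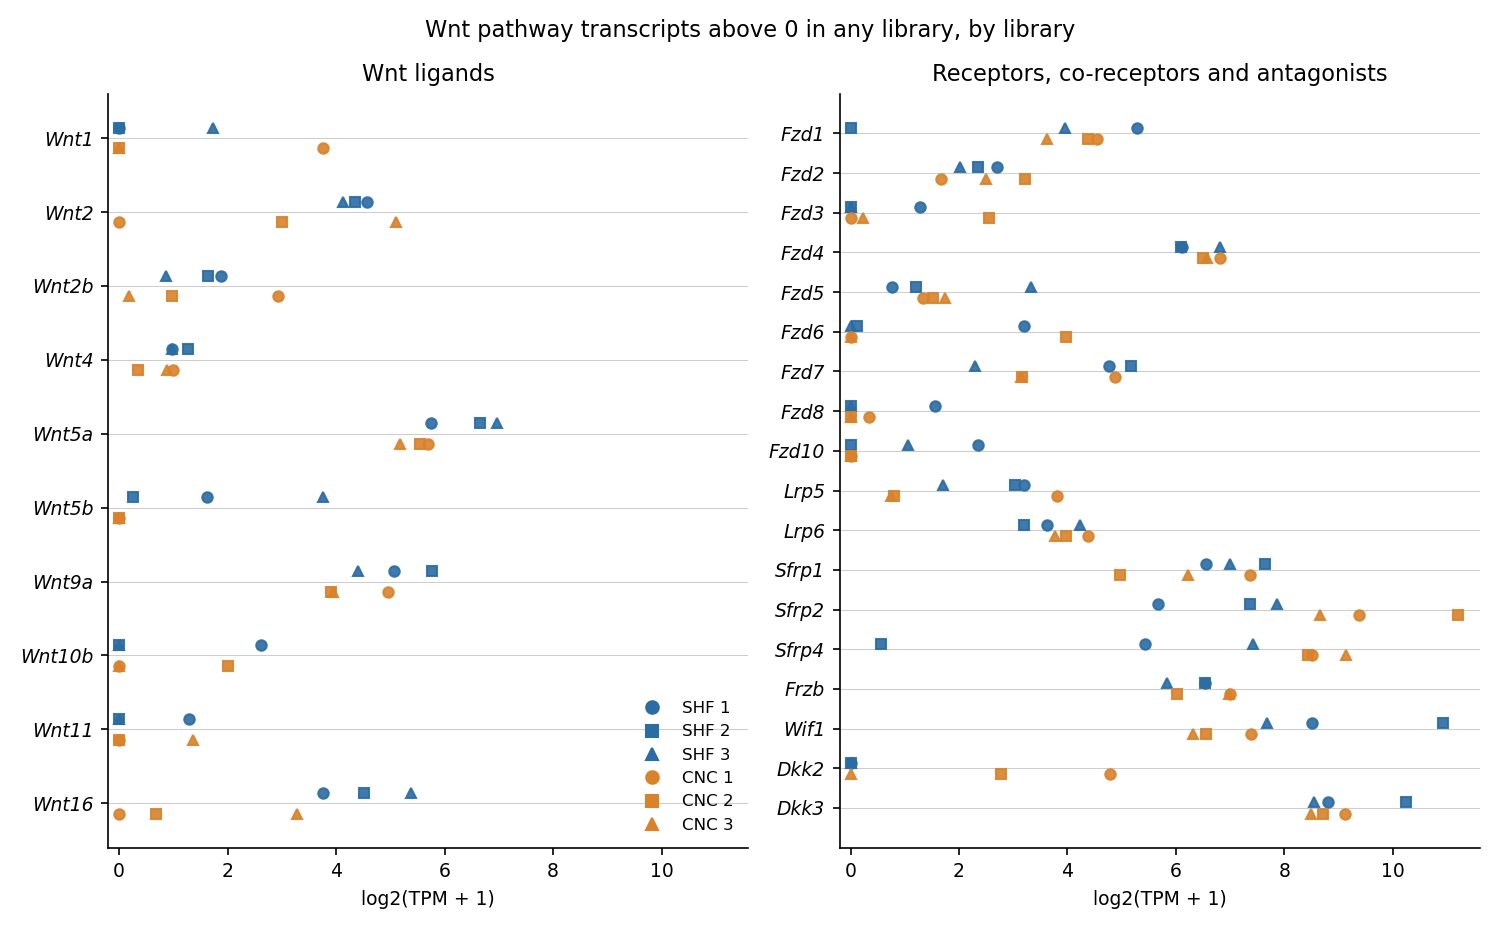
Level of the 28 genes above 0 in any library, as log2(TPM + 1) on the horizontal axis, with 1 point per library (blue, SHF; orange, CNC; the marker gives the replicate). *Sfrp2*, *Sfrp4*, *Wif1*, *Wnt16* and *Wnt5a* show blue and orange points that do not overlap, and *Wnt5b* was above 0 in SHF libraries only.

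For 3 of the 5 genes whose lineages did not overlap, the DNA upstream of the annotated start is shown. It lets the regulatory end of the genes described first be seen. The sequences are from RefSeq on GRCm38.p6, plus strand, 5′ to 3′, and end at the base before the first exon annotated by GENCODE M21. For *Wif1* that exon starts upstream of the RefSeq start site, so its stretch stops short of that site. *Sfrp2* lies at chr3:83766171-83766320, *Wif1* at chr10:121033854-121033959 and *Wnt16* at chr6:22288077-22288226. *Sfrp4* and *Wnt5a* are the others.
*Sfrp2*: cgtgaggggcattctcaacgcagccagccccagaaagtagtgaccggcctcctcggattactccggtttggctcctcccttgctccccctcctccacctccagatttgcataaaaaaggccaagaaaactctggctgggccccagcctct
*Wif1*: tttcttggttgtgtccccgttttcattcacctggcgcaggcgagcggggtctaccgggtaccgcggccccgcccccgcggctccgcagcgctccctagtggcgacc
*Wnt16*: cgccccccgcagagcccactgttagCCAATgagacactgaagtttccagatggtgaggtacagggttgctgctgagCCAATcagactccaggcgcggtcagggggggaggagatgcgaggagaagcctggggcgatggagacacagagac
Capitals mark the CCAAT box, a common promoter element, which was present at 2 places upstream of *Wnt16*. The letters CCAAT or their complement ATTGG stand in 33.8% of 32851 RefSeq upstream windows of 250 bases. The Tcf/Lef core CTTTGAT or its complement ATCAAAG, which does not overlap CCAAT, stands in 3.21% of them. Of the 30 such windows of the 41 genes, 10 hold CCAAT and 2 hold the Tcf/Lef core. The stretches shown hold no Tcf/Lef core, but at 150, 106 and 150 bases they are shorter than the windows, so these shares do not apply to them. GC content was 58.7% for *Sfrp2*, 69.8% for *Wif1* and 61.3% for *Wnt16*.

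*Sfrp2*, on chromosome 3 of GRCm38 from 83766321 to 83774316, encodes a secreted Frizzled-related protein that binds Wnt ligands and is widely made by fibroblasts. Its level was 49.82, 164.53 and 233.15 TPM in the SHF libraries, compared with 664.67, 2340.36 and 402.53 TPM in the CNC libraries. Every CNC library was above every SHF library, and CNC replicate 2 stood far above the rest. The mean was 149 ± 92.6 TPM (SD, n = 3) in SHF and 1136 ± 1051 TPM (SD, n = 3) in CNC, a ratio of 7.61. The log2 difference was -2.77 ± 0.67 (SE), with a 95% interval of -4.24 to -1.30, an unadjusted limma p of 0.0016 and a Benjamini-Hochberg adjusted p of 0.475. Without CNC replicate 2 the difference was -2.05. Exons of *Sfrp2* overlap those of the antisense gene *Gm26771*, and SmartSeq2 libraries do not record strand.

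*Sfrp4*, on chromosome 13 from 19623104 to 19632994, encodes another protein of the family and followed the same order. Its level was 42.28, 0.47 and 171.26 TPM in SHF, compared with 363.13, 342.75 and 557.67 TPM in CNC. The lowest CNC library was above the highest SHF library, and SHF replicate 2 was close to 0. The mean was 71.3 ± 89.0 TPM (SD, n = 3) in SHF and 421 ± 119 TPM (SD, n = 3) in CNC, with CNC 5.90 times SHF. The log2 difference was -4.21 ± 1.30 (SE), with a 95% interval of -7.08 to -1.35 and an adjusted limma p of 0.625. Without SHF replicate 2 the difference was -2.25.

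*Wif1*, on chromosome 10 from 121033960 to 121100650, encodes Wnt inhibitory factor, which binds Wnt ligands through a domain unrelated to that of the Sfrp proteins. It went the opposite way, at 365.18, 1940.75 and 203.66 TPM in SHF, compared with 165.89, 92.7 and 78.55 TPM in CNC. Every SHF library was above every CNC library, with a narrow gap between SHF replicate 3 and CNC replicate 1. The mean was 837 ± 960 TPM (SD, n = 3) in SHF and 112 ± 46.9 TPM (SD, n = 3) in CNC, with SHF 7.44 times CNC. The log2 difference was 2.29 ± 0.69 (SE), with a 95% interval of 0.77 to 3.81 and an adjusted limma p of 0.625. Without SHF replicate 2 it was 1.35.

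The other antagonists overlapped between the lineages. *Dkk3*, a divergent Dickkopf protein that is not a clear inhibitor of Lrp5 and Lrp6, was at 444.63, 1207.54 and 371.58 TPM in SHF, compared with 555.52, 417.99 and 356.56 TPM in CNC. Apart from SHF replicate 2, its values lay close together, and its log2 difference of 0.42 had a 95% interval of -0.51 to 1.35. *Sfrp1* was at 92.53, 197.9 and 126 TPM in SHF, compared with 164.81, 30.31 and 73.2 TPM in CNC, a log2 difference of 0.87 with an interval of -0.47 to 2.22. *Frzb*, also called Sfrp3, was at 91.79, 91.77 and 56.22 TPM in SHF, compared with 127.28, 63.7 and 124.88 TPM in CNC. Its log2 difference was -0.36 with an interval of -1.42 to 0.70. *Dkk2*, a Dickkopf protein that binds the co-receptors, was listed at 0 in the 3 SHF libraries and CNC replicate 3 but reached 26.69 TPM in CNC replicate 1 and 5.86 TPM in CNC replicate 2. It did not reach the filter and was not tested.

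Seen as shares of the antagonist TPM of each library, which do not depend on scaling between libraries, *Sfrp2* and *Sfrp4* together made up 8.48%, 4.58% and 34.8% in SHF, compared with 49.7%, 81.5% and 60.3% in CNC. *Wif1* made up 33.6%, 53.9% and 17.5% in SHF, compared with 8.02%, 2.81% and 4.93% in CNC. The lineages did not overlap in either share. Taken alone, the share of *Sfrp2* did not overlap, at no more than 20.1% in SHF and no less than 25.3% in CNC. The share of *Sfrp4* alone did overlap, at 14.7% in SHF replicate 3 and 10.4% in CNC replicate 2. *Dkk3* made up 32.0% to 40.9% in SHF libraries and 12.7% to 26.9% in CNC libraries, although its TPM values overlapped. Shares of a fixed total are tied together, so a larger share of *Sfrp2* and *Sfrp4* leaves less for *Dkk3* and *Wif1*. The most abundant antagonist was *Dkk3* in SHF replicates 1 and 3, *Wif1* in SHF replicate 2, *Sfrp2* in CNC replicates 1 and 2 and *Sfrp4* in CNC replicate 3. The summed antagonist level overlapped, at 1086 to 3603 TPM in SHF libraries and 1593 to 3294 TPM in CNC libraries. The shares were chosen after their values were seen and are given without a test.

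**Figure D2:**
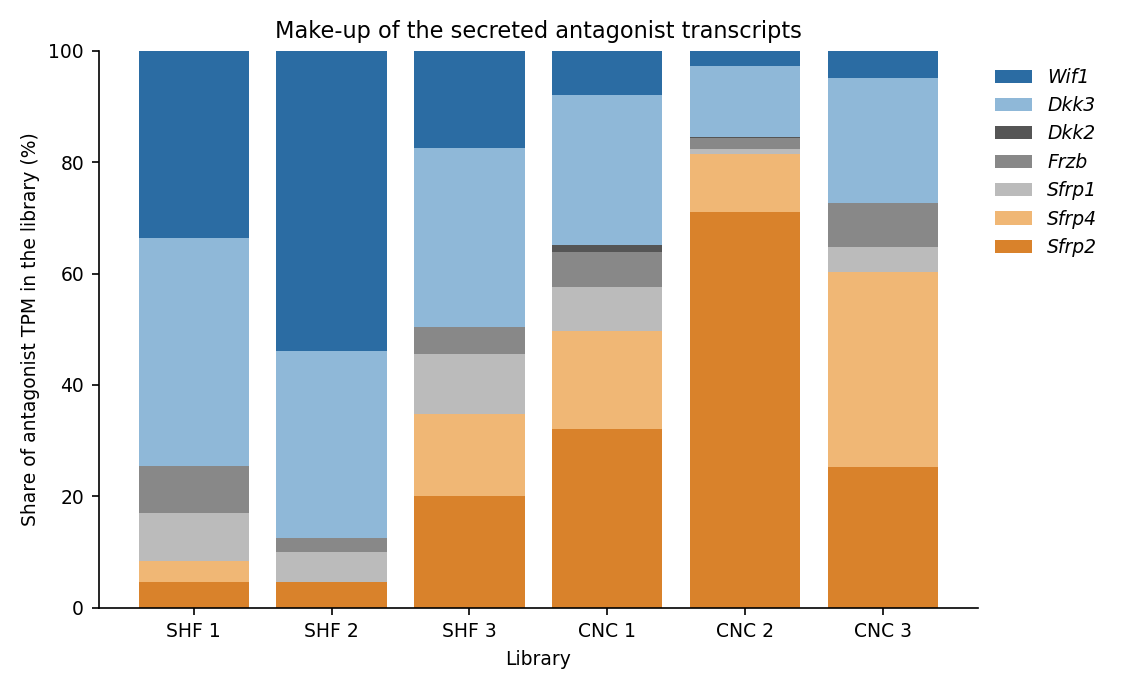
Share of each antagonist in the summed TPM of the antagonists (vertical axis, %) for each library (horizontal axis). The orange segments (*Sfrp2* and *Sfrp4*) took at least 49.7% in each CNC library and at most 34.8% in each SHF library, while *Wif1* (dark blue) took at least 17.5% in each SHF library and at most 8.02% in each CNC library.

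Among the ligands, 10 of 19 were above 0 in some library and 4 in all 6. *Wnt5a*, on chromosome 14 from 28504750 to 28527448, was the most abundant Wnt ligand in each of the 6 libraries and supplied 37.3% to 63.9% of ligand TPM. Its level was 52.8, 99.54 and 123.44 TPM in SHF, compared with 50.99, 45.55 and 35.02 TPM in CNC. The groups touched without overlapping, since SHF replicate 1 was only just above CNC replicate 1, and they overlapped once the libraries were rescaled by median-of-ratios factors. The mean was 91.9 ± 35.9 TPM (SD, n = 3) in SHF, the CNC mean was 43.9 ± 8.12 TPM (SD, n = 3), and the log2 difference was 0.98 ± 0.54 (SE) with an adjusted limma p of 0.874. Its exons overlap those of the antisense gene *Gm2670*.

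*Wnt16*, on chromosome 6 from 22288227 to 22298522, encodes a ligand studied mainly in bone and in the specification of blood stem cells. Its level was 12.5, 21.92 and 40.38 TPM in SHF, compared with 0, 0.6 and 8.7 TPM in CNC. Each SHF library was above each CNC library, and the CNC libraries ran from listed at 0 to a level not far under SHF replicate 1. The mean was 24.9 ± 14.2 TPM (SD, n = 3) in SHF and 3.10 ± 4.86 TPM (SD, n = 3) in CNC. The log2 difference was 3.23 ± 1.34 (SE), with a 95% interval of 0.29 to 6.17, an unadjusted limma p of 0.0343 and an adjusted p of 0.812. The unadjusted p rose above 0.05 in 5 of 15 alternatives, those without SHF replicate 2, SHF replicate 3, CNC replicate 1 or CNC replicate 2 and the 1 with library weights.

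*Wnt9a*, a ligand known from joint and heart valve development, was at 32.41, 53.78 and 20.15 TPM in SHF, compared with 29.93, 13.95 and 14.32 TPM in CNC. *Wnt2*, which takes part in early cardiac and lung development, was steady in the SHF replicates at 22.88, 19.47 and 16.36 TPM and uneven in the CNC replicates, at 0, 7.01 and 33.32 TPM. The lineages overlapped for both genes, and the intervals of the log2 difference were -0.95 to 2.58 for *Wnt9a* and -1.41 to 4.71 for *Wnt2*. *Wnt5b*, the closest relative of *Wnt5a*, was at 2.07, 0.19 and 12.55 TPM in SHF but listed at 0 in all 3 CNC libraries, and was too low to be tested. *Wnt1*, whose regulatory DNA drives *Wnt1-Cre2*, reached 12.53 TPM in CNC replicate 1, reached 2.31 TPM in SHF replicate 3 and stood at 0 elsewhere. The other ligands above 0, *Wnt2b*, *Wnt4*, *Wnt10b* and *Wnt11*, did not exceed 6.65 TPM in any library. The summed ligand level was 132.85, 198.43 and 216.97 TPM in SHF, compared with 101.08, 71.34 and 93.92 TPM in CNC, a separation carried mostly by *Wnt5a*, *Wnt16* and *Wnt9a*.

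The summed level of the Frizzled receptors ran from 107.81 to 166.44 TPM, below the antagonist sum in every library, and no receptor or co-receptor separated the lineages. *Fzd4*, a Frizzled that in the vasculature also serves as the receptor of norrin, was the most abundant receptor in all 6 libraries and supplied 44.1% to 78.0% of Frizzled TPM. Its level was 67.7, 67.53 and 110.74 TPM in SHF, compared with 111.59, 89.76 and 93.76 TPM in CNC. The libraries overlapped, and the log2 difference was -0.29 with a 95% interval of -1.27 to 0.69. Its level was near that of single antagonists such as *Frzb*. *Fzd7* was at 26.16, 34.8 and 3.92 TPM in SHF, compared with 28.45, 7.9 and 7.79 TPM in CNC, and *Fzd1* at 37.92, 0 and 14.42 TPM in SHF, compared with 22.44, 19.7 and 11.39 TPM in CNC. Both varied within a lineage as much as between lineages, and both changed direction when SHF replicate 2 was left out. The remaining Frizzled genes above 0, *Fzd2*, *Fzd3*, *Fzd5*, *Fzd6*, *Fzd8* and *Fzd10*, reached at most 14.75 TPM. Of the co-receptors, *Lrp6* was above *Lrp5* in every library, at 11.34, 8.2 and 17.7 TPM in SHF, compared with 19.84, 14.77 and 12.68 TPM in CNC. *Lrp5* was at 8.19, 7.16 and 2.25 TPM in SHF, compared with 13.05, 0.74 and 0.68 TPM in CNC. The intervals of the log2 difference were -2.55 to 1.83 for *Lrp6* and -1.98 to 3.69 for *Lrp5*.

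In the limma fit, 18 of the 41 genes passed the filter on low values, and 0 of them had an adjusted p under 0.05, against 0% of the 10185 genes tested. Adjusted p-values of the 18 ran from 0.475 to 0.997. At an unadjusted p under 0.05 there were 4, *Wif1* and *Wnt16* higher in SHF, where the background was 2.69% of genes tested, and *Sfrp2* and *Sfrp4* higher in CNC, where it was 3.17%. Groups did not overlap for 3 genes with SHF above CNC, against 6.11% of genes tested, and for 2 with CNC above SHF, against 5.68%, so for 5 in all, against 11.8%. Among the 28 genes above 0 in any library, *Wnt5b* made it 4 with SHF above CNC, where 4.79% of such genes did so, and it stayed at 2 with CNC above SHF, where the share was 4.37%. The exact two-sided permutation p of each of the 5 tested genes that did not overlap was 0.1, the smallest that 3 libraries against 3 allow. A lack of overlap fixes this value, so the p adds nothing to it. The median log2 difference of the 18 was 0.29, beside 0.02 for all genes tested. The study sought lineage-exclusive transcripts with a threshold of 5 TPM, read here as above 5 TPM in each library of a lineage and at 0 in each of the other. None of the 41 met this, which 0.134% of genes above 0 met for SHF and 0.106% for CNC.

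**Figure D3:**
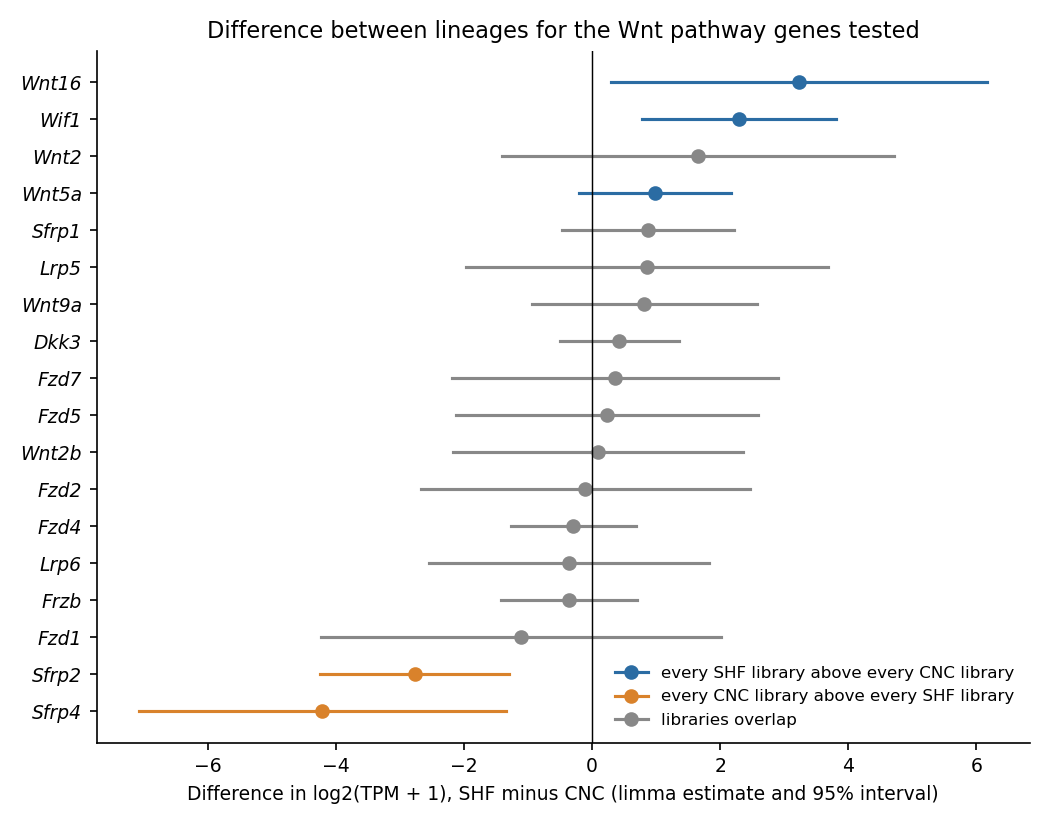
Difference in log2(TPM + 1), SHF minus CNC (horizontal axis), for the 18 genes tested, as the limma estimate (point) with its 95% interval (line). Intervals of *Wnt16*, *Wif1*, *Sfrp2* and *Sfrp4* leave out 0, with unadjusted p-values only, and the adjusted p-values of these 4 ran from 0.475 to 0.812 in limma.

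Other genes of the pathway were read from the same fit. Of 59 such genes, listed by role, 42 were tested, and 0 had an adjusted limma p under 0.05. At an unadjusted p under 0.05 and higher in SHF there were 5, beside 2.69% of all genes tested, and higher in CNC there were 0, beside 3.17%. These were *Tcf7l2* and *Lef1*, which encode the DNA-binding partners of β-catenin, *Bcl9*, a co-activator that binds β-catenin, and *Axin2* and *Wisp1*, 2 target genes of the pathway, of which *Axin2* is also a feedback inhibitor. *Lef1*, *Bcl9* and *Axin2* reached 1 TPM in SHF libraries only and so passed the filter through the lineage in which they were higher, which fixed their direction. *Tcf7l2* and *Wisp1* are the 2 that did not depend on the filter in this way.

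*Tcf7l2* was at 85.76, 267.96 and 114.02 TPM in SHF, compared with 68.39, 50.62 and 60.75 TPM in CNC, with an adjusted limma p of 0.820. *Wisp1* was at 30.56, 45.8 and 31.96 TPM in SHF, compared with 8.11, 0 and 10.4 TPM in CNC, with an adjusted p of 0.812. *Lef1* was at 4.54, 35.18 and 2.78 TPM in SHF but at most 0.56 TPM in a CNC library. SHF libraries were above CNC libraries for each of these, with the highest *Tcf7l2* and *Lef1* in SHF replicate 2, where *Wif1* and *Dkk3* also peaked. *Axin2* was at 4.25, 12.31 and 1.62 TPM in SHF but at most 0.6 TPM in a CNC library, and *Bcl9* at 3.94, 7.71 and 2.63 TPM in SHF but at most 0.03 TPM in a CNC library. The unadjusted limma p was not under 0.05 in 6 of 15 alternatives for *Tcf7l2* and in 5 of 15 for *Wisp1*. It was not under 0.05 in 8 of the 11 alternatives that tested *Axin2*, 4 of the 12 that tested *Lef1* and 1 of the 11 that tested *Bcl9*, and the other alternatives left these 3 genes out of the test.

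Among 14 target genes, 9 were tested and 8 had an estimate above 0, with a median log2 difference of 0.94 and 0 adjusted calls, beside 5215 of the 10185 genes tested with an estimate above 0 and a median of 0.02. The 9 include *Axin2*, which passed the filter through the SHF libraries. The gene with an estimate below 0 was *Ccnd1*, at -0.95. It was at 4.29, 4.18 and 3.44 TPM in SHF, compared with 18.18, 3.82 and 8.46 TPM in CNC. Among the 8, the estimates of *Nkd2* and *Znrf3* were small, at 0.31 and 0.12. *Myc*, a growth regulator with many inputs besides Wnt, was at 225.94, 46.1 and 109.78 TPM in SHF, compared with 34.84, 47.47 and 96.12 TPM in CNC. *Bambi*, a decoy receptor of the TGF-β family, was at 57.64, 85.07 and 62.84 TPM in SHF, compared with 61.39, 21.58 and 13.55 TPM in CNC. Both overlapped between the lineages. *Notum* and *Sp5* were listed at 0 in all 6 libraries. Of the transducers, *Csnk1a1*, a kinase of the β-catenin destruction complex, had the highest mean over the 6 libraries, at 184.56, 141.61 and 57.54 TPM in SHF, compared with 173.09, 105.69 and 42.33 TPM in CNC. *Tcf7l2* was above it in SHF replicates 2 and 3 and in CNC replicate 3.

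**Figure D4:**
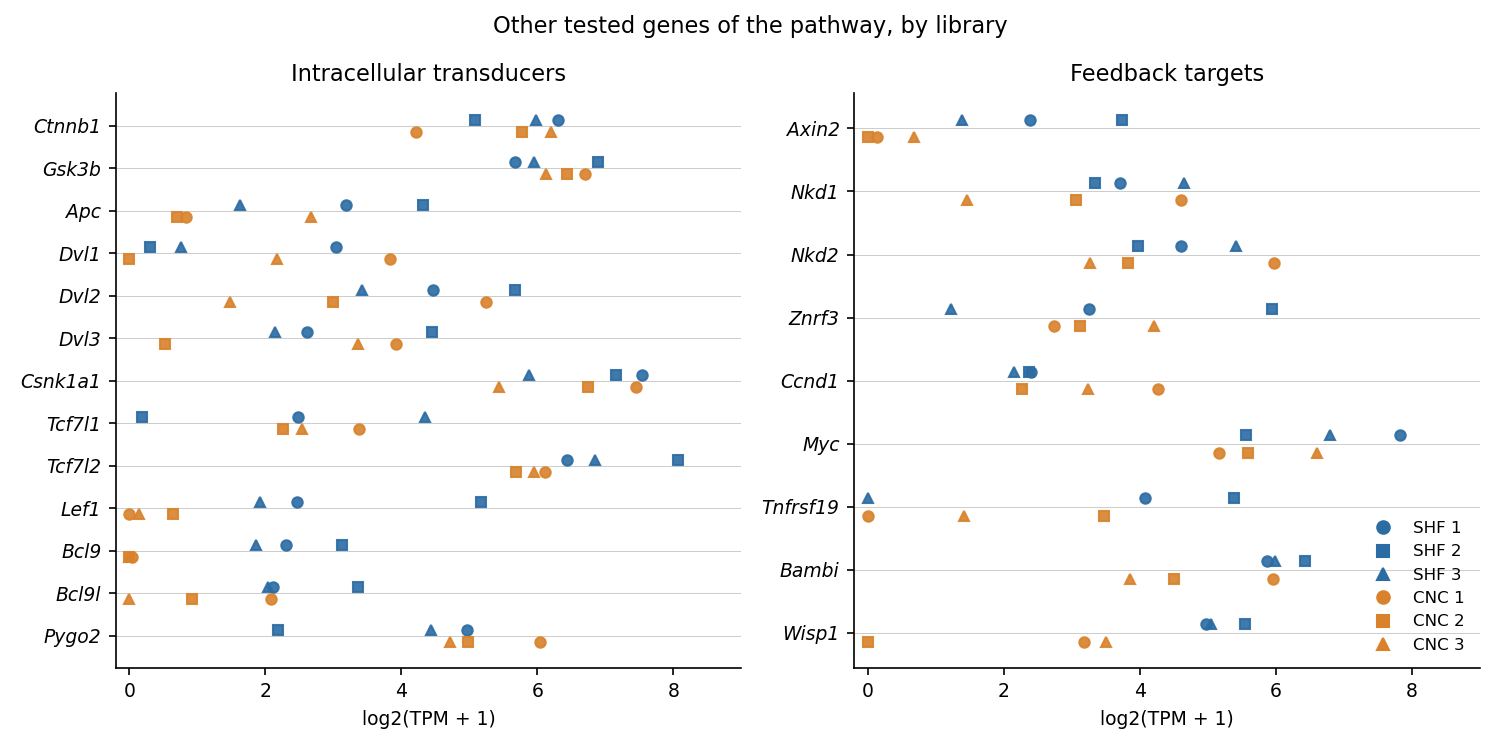
Level of the tested intracellular transducers and target genes, as log2(TPM + 1) on the horizontal axis. The panel headed Feedback targets holds all tested target genes, not only feedback regulators. Each library has 1 point (blue for SHF, orange for CNC, with the marker giving the replicate). *Tcf7l2*, *Lef1*, *Bcl9*, *Axin2* and *Wisp1* have every blue point above every orange point, as 6.11% of all genes tested do, with adjusted limma p-values from 0.706 to 0.821. For *Lef1*, *Bcl9* and *Axin2* the filter, passed through SHF libraries only, fixed this direction.

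Genes for ligand export and for other branches of the pathway did not separate the lineages, apart from *Tpbg*, a membrane protein that restrains Wnt signaling. It is named here after its values were seen, at 9.91, 25.42 and 11.31 TPM in SHF, compared with 0.37, 0.1 and 8.48 TPM in CNC, and had an adjusted limma p of 0.874. *Wls*, the carrier that brings lipid-modified Wnt proteins to the cell surface, was at 252.31, 184.34 and 206.27 TPM in SHF, compared with 357.64, 211.2 and 191.43 TPM in CNC. *Porcn*, the enzyme that adds the lipid, was listed at 0 in SHF replicate 2 and was otherwise at 19.5 to 45.17 TPM. *Lgr4*, a receptor of R-spondins, was at 15.73, 22.72 and 46.83 TPM in SHF, compared with 64.75, 38.54 and 37.02 TPM in CNC, and *Lgr6* ran from 0 to 36.15 TPM. *Prickle1*, a planar polarity protein, was at 70.08, 56.44 and 32.05 TPM in SHF, compared with 61.78, 82.92 and 62.1 TPM in CNC, and *Daam1*, a formin downstream of Dishevelled, ran from 13.14 to 50.25 TPM. The glypicans *Gpc3* and *Gpc4*, cell surface proteoglycans that hold Wnt ligands, ran from 181.97 to 712.01 TPM and from 39.08 to 143.6 TPM.

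Markers of other cell types moved with the lineages as well. The summed level of 8 fibroblast markers was 28541, 26749 and 29525 TPM in SHF, compared with 46837, 36138 and 48258 TPM in CNC. All 8 were above 0 in every library. The sum was higher in every CNC library than in any SHF library, as were *Sfrp2* and *Sfrp4*. Within CNC the order differed, since replicate 2 had the lowest sum and the highest *Sfrp2*. Of the 8, *Col1a1*, *Col3a1*, *Pi16* and *Clec3b* were higher in every CNC library than in any SHF library, whereas *Dcn*, *Lum*, *Pdgfra* and *Dpt* overlapped. The collagens carried most of the difference in the sum, with means of 4314 TPM in SHF and 10631 TPM in CNC for *Col1a1*, while the means of *Dcn* were 12281 TPM and 13442 TPM. As a percentage of that sum, *Sfrp2* was at 0.175, 0.615 and 0.790 in SHF, compared with 1.42, 6.48 and 0.834 in CNC, and *Sfrp4* at 0.148, 0.00176 and 0.580 in SHF, compared with 0.775, 0.948 and 1.16 in CNC. This measure was chosen after the data were seen. For *Sfrp2*, SHF replicate 3 and CNC replicate 3 nearly met on it, and the part of fibroblast content in either difference was not tested.

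The summed level of 8 endothelial markers was 51.22, 580.67 and 463.16 TPM in SHF, compared with 24.1, 37.86 and 21.79 TPM in CNC. Between 6 and 8 of the 8 were above 0 in SHF libraries and 1 or 2 in CNC libraries, where *Cdh5*, *Tie1*, *Vwf*, *Emcn* and *Cldn5* were listed at 0. Every SHF library was also above every CNC library for *Wif1*, *Wnt16*, *Wnt5a*, *Wnt5b*, *Tcf7l2*, *Lef1*, *Bcl9*, *Axin2*, *Wisp1* and *Tpbg*, and the part of endothelial cells in these differences was not tested. The summed level of 6 cardiomyocyte markers was also higher in SHF libraries, at 87.44 to 115.85 TPM against 0 to 37.67 TPM with *Myl7* at 0 throughout. That of 6 Schwann cell markers was higher in CNC libraries, at 21.43 to 94.4 TPM against 1.5 to 15.32 TPM. Smooth muscle markers overlapped, at 880 to 2050 TPM in SHF libraries and 831 to 1234 TPM in CNC libraries, with 7 or 8 of 8 above 0. Of 7 leukocyte markers at most 4 were above 0, with *Ptprc* at 0 in all libraries and sums of 0 to 26.9 TPM in SHF and 7.96 to 84.7 TPM in CNC libraries.

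**Figure D5:**
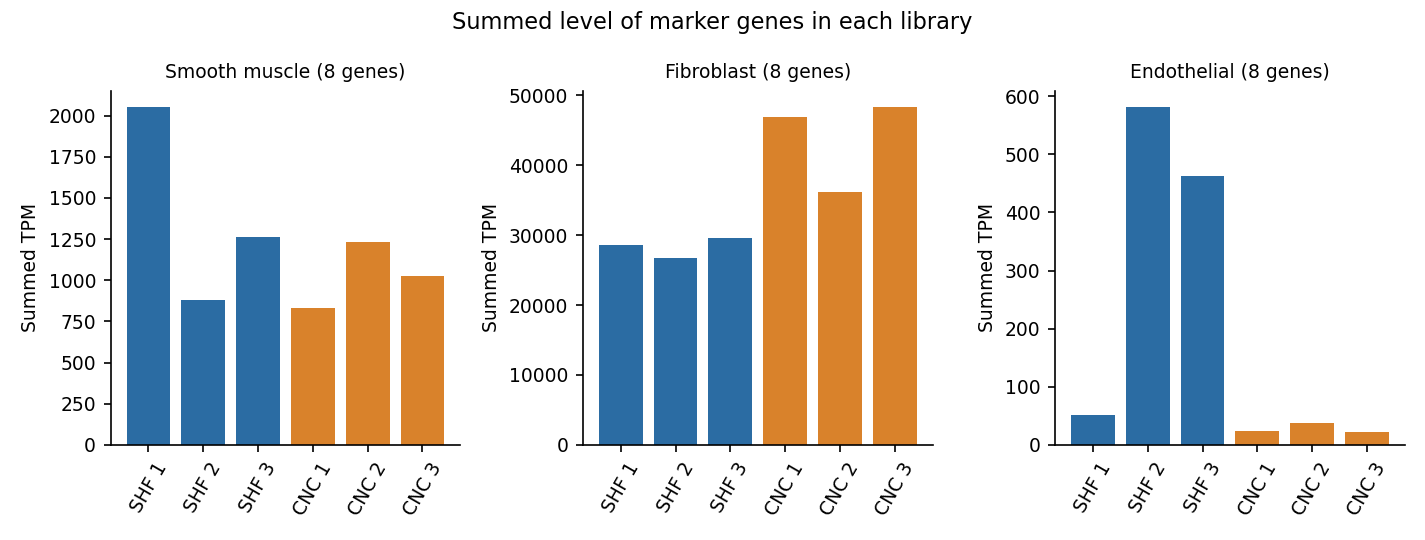
Summed TPM (vertical axes, on separate scales) of 8 smooth muscle, 8 fibroblast and 8 endothelial marker genes in each library (blue, SHF; orange, CNC). Fibroblast sums were higher in CNC libraries (at least 36138 TPM) than in SHF libraries (at most 29525 TPM), and endothelial sums were highest in SHF replicates 2 and 3.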

How the data were processed

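SHF-traced and CNC-traced cells (3 biological replicates each) were digested from the aortic root and ascending aorta and sorted as living GFP+ cells, and RNA was amplified by SmartSeq2, which has no molecular identifiers and no strand. Whether a library came from 1 mouse or several is not given in the sources used here. The authors deposited TPM values, 1 column per library. Their processing notes name RSEM 1.2.25, Bowtie2 and mm10, and the annotation is not given in the sources used here. Columns were matched through library codes. No depth, interval on a share or detection limit can be had from TPM.

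A linear model (lmFit, then eBayes with a trend, from limma 3.58.1 under R 4.3.3) was fitted to log2(TPM + 1) for every gene that reached 1 TPM in 3 or more libraries. P-values were adjusted by Benjamini-Hochberg over all genes tested, with a threshold of 0.05. Since nothing ties libraries to mice, p-values measure the spread between libraries. Single genes were also tested with exact two-sided permutation tests. The fit was tested on simulated data. Genes whose mean reached 5 TPM, with lineages that did not overlap or with an unadjusted p under 0.05 were named with values, as were the 2 most abundant genes of each other pathway list and those with an unadjusted p under 0.05. The 41 genes were taken by family and the other lists by role or cell type, with earlier results of these data known. Positions are from GENCODE M21 on GRCm38 (mm10), matched by symbol, and upstream sequences from RefSeq, matched for 3 of 5 symbols. Replicate numbers did not pair the libraries. Ratios of *Sfrp2* and *Sfrp4* to the fibroblast marker sum were added after seeing the data. Alternatives were pseudocounts of 0.1 and 5, other filters, rescalings and eBayes settings, library weights, a replicate block and each library left out in turn. Python 3.11.15, pandas 2.3.3 and matplotlib 3.10.9 were used for tables and plots.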

Additional observations from a re-analysis of the deposited data

How the results depend on the processing

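None of the 41 genes, nor of the other pathway genes, passed the adjusted threshold of 0.05 in limma under any of 15 alternatives, and the lowest adjusted p of a gene of the 41 in any of them was 0.305. Among all genes, 1 passed with a pseudocount of 5 and 0 under each other alternative, including the fits that left out a library. *Sfrp2*, *Sfrp4* and *Wif1* kept their direction and an unadjusted p under 0.05 in all 15. Across the fits that each left out a library, the log2 difference ran from -3.32 to -2.05 for *Sfrp2*, from -5.69 to -2.25 for *Sfrp4*, from 1.35 to 2.97 for *Wif1*, from 2.57 to 4.21 for *Wnt16* and from 0.73 to 1.33 for *Wnt5a*. It ran from -2.21 to 0.43 for *Fzd1*, from -0.19 to 1.24 for *Fzd7* and from -0.10 to 0.75 for *Dkk3*, each changing sign without SHF replicate 2. The other 12 genes of the 41 so examined, *Tcf7l2* and *Wisp1* did not change sign, but the size of the difference was not always stable. It ran from 0.26 to 1.47 for *Sfrp1*, from 0.30 to 2.85 for *Wnt2* and from 0.34 to 1.87 for *Lrp5*. The sign of *Lef1*, *Bcl9* and *Axin2* was fixed by the filter and says nothing about stability. The cause was not tested, and the further pathway genes named with values were not compared one by one across alternatives. The median over the genes tested ran from 0.17 to 0.58. The count of CNC-exclusive genes among the 41 ran from 0 to 1 across counts that left out a library and was 0 under each other threshold. The 1 was *Dkk2* without CNC replicate 3. Leaving out that library also raised the count of CNC-exclusive genes among all rows, from 15 to 34. With median-of-ratios rescaling, 4 rather than 5 tested genes had lineages that did not overlap. The share of all genes tested that did not overlap under that rescaling is not given here.

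Both lineages carry replicate numbers 1 to 3, but nothing in the labels ties equal numbers together, and the correlations of deviations from the lineage means were -0.011, -0.004 and -0.011 for replicates 1, 2 and 3. Adding a replicate block to the model left 0 of all genes, and 0 of the 41, past the threshold. Unknown depth and values of 0 limit statements on the low ligands and receptors.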

Other observations

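The balance of *Sfrp2* to *Wif1* within a library does not depend on scaling between libraries. In order of replicate, the ratio of *Sfrp2* to *Wif1* TPM was 0.136, 0.0848 and 1.15 for SHF, compared with 4.01, 25.3 and 5.13 for CNC, so that *Sfrp2* exceeded *Wif1* in all 3 CNC libraries and in SHF replicate 3. The ratio of *Sfrp4* to *Wif1* was below 1 in all 3 SHF libraries and from 2.19 to 7.10 in the CNC libraries. Both ratios were chosen after the data were seen and are given without a test. *Sfrp2* and *Sfrp4* were higher in every CNC library and *Wif1* in every SHF library. The separation of the lineages in both ratios was therefore fixed by this choice of genes and adds no further evidence.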
